A study of Mus musculus with 6 samples.

Results

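The genes described here encode the subunits that set canonical BAF (cBAF) and polybromo-associated BAF (PBAF) apart from the non-canonical BRD9 complex, together with the alternative ATPase Smarca2. The members were taken by symbol: Arid1a, Arid1b and Dpf2 for cBAF, Arid2, Pbrm1, Brd7 and Phf10 for PBAF, Smarcb1 and Smarce1 for both complexes, and Smarca2. All 10 were found among the 55487 genes of the deposited table, and all 10 were among the 15020 genes that passed the filter on low values (normalized counts averaging 10 or more).

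SWI/SNF complexes slide or evict nucleosomes with the energy of ATP, which is hydrolysed by either SMARCA4 (BRG1) or SMARCA2 (BRM). cBAF carries ARID1A or ARID1B with a double-PHD-finger protein such as DPF2 and acts mainly at enhancers, whereas PBAF carries ARID2, the polybromo protein PBRM1, BRD7 and PHF10 and is found more at promoters. Non-canonical BAF (ncBAF) lacks the ARID proteins, SMARCB1 and SMARCE1, and holds BRD9 instead. In acute myeloid leukemia driven by MLL fusions, BRG1 is known to be needed for growth of the leukemia cells.

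Bulk RNA-seq was available from 3 libraries labelled PBS and 3 labelled pIpC (poly(I:C), a synthetic double-stranded RNA that raises interferon and so switches on the Mx1 promoter). Both groups carried the same alleles: the donor cells were CD45.2(+) Mx1-Cre Brd9fl/fl MA9 on C57BL/6, in which a retroviral MLL-AF9 oncogene drives leukemia, and the recipients were CD45.1(+) CD45.2(-), so that the PBS controls also held the floxed alleles, Cre and the oncogene. Irradiated recipients (2 fractions of 450 cGy) received 1000 cells and, from the next day, 3 doses of PBS or of pIpC at 20 mg/kg on alternate days, and GFP+ bone marrow cells from femora and tibiae were prepared 10 days after injection. The labels give no ages and do not say whether the libraries came from separate animals, so the p-values measure only the spread between these libraries, which may be technical. Cre from the Mx1 promoter acts in every donor cell that responds to interferon, not in leukemia cells alone. The sources differ on 3 points: the study's methods name c-Kit+ cells, stranded libraries and a single sublethal dose of 450 cGy, whereas the submitted descriptions name GFP+ cells, unstranded libraries and a lethal dose.

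The libraries differed in more than the treatment. Values of single libraries are given in the order of replicates 1, 2 and 3 throughout. Brd9, whose floxed alleles pIpC was meant to delete, had a normalized count of 1926.8, 1946.4 and 1631.9 in the PBS libraries and 2036, 2263 and 2011.4 in the libraries labelled pIpC. The Brd9 count over the whole gene was therefore not lower under the pIpC label (1835 ± 176 against 2103 ± 139, SD, n = 3 each; log2 fold change 0.20, standard error 0.13, limma adjusted p = 0.259; exact permutation test, 2-sided p = 0.1, the lowest value 3 against 3 can reach), and directions below are given by the label alone. By the paper, the floxed part spans exons 4 to 6, of the 16 exons in the longest coding transcript. Whether the alleles were deleted therefore cannot be told from this count. Total normalized counts ran from 19361824 to 24026315 per library. Between replicates of a group the chi-square statistic per gene was 5.98 at the least (PBS replicates 1 and 2) and 196 at the most (PBS replicates 1 and 3), so no library was taken as a repeat of another. Xist, the RNA of the inactive X chromosome, chosen after its values were seen, was at 46.6 ± 28.8 in PBS and 21515 ± 4104 in the libraries labelled pIpC (SD, n = 3 each), and the labels give no sex. Marker lists moved with the label as well. All 10 neutrophil markers were higher under the pIpC label (summed count 15813 to 36613 in PBS, against 2016950 to 2087995), as were all 9 erythroid markers found (19 to 43, against 3759 to 5664), with Slc4a1 at 0 in every PBS library. The same held for 8 of 8 B cell markers (136.6 to 304.4, against 1274 to 2364) and for the 5 of 8 T and NK cell markers that could be tested (summed over all 8, 177.1 to 318, against 3855 to 4476). Of 8 macrophage markers 6 were higher and 2 lower (10321 to 14605, against 6351 to 8065), and of 6 proliferation markers 5 were higher (27867 to 45598, against 61282 to 68266). Of 6 MLL-AF9 leukemia markers 4 were lower (Hoxa7, Hoxa9, Hoxa10 and Meis1), Mef2c was higher and Kit did not pass (15463 to 19289, against 5816 to 6337). Hoxa9, a homeobox gene that MLL fusions activate, was at 5130 ± 195 in PBS and 256 ± 28.4 in the libraries labelled pIpC. The part of these marker differences in the values below was not tested, and in bulk RNA a smaller share of a cell type and less RNA per cell cannot be told apart.

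The 250 bases before the transcription start, as annotated by RefSeq on GRCm38.p6, are shown for Arid1a, the more abundant ARID gene of cBAF, and for Pbrm1 and Phf10, the PBAF subunits that lay higher under the pIpC label. RefSeq promoters matched 8 of the 10 members, and Arid2 and Smarce1 had none in the table. Capitals mark matches on either strand to 5 motifs, whose letters are given after the sequences. Arid1a is read from chr4:133756770-133757019 on the minus strand, Pbrm1 from chr14:31018888-31019137 on the plus strand and Phf10 from chr17:14961261-14961510 on the minus strand, each 5′ to 3′.
Arid1a: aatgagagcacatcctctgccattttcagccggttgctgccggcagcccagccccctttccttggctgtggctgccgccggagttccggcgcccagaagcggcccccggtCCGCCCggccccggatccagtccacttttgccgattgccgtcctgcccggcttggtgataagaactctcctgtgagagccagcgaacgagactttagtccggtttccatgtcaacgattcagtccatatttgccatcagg
Pbrm1: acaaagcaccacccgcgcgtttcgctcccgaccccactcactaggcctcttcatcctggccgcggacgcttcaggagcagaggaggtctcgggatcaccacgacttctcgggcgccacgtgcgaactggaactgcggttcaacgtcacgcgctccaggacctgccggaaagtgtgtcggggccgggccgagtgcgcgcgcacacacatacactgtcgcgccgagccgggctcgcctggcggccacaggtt
Phf10: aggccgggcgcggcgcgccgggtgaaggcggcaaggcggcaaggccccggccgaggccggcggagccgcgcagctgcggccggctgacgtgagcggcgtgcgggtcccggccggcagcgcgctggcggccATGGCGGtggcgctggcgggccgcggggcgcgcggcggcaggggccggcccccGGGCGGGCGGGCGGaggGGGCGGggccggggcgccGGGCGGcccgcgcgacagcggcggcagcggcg

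The Arid1a window was 61.2% G and C and held 1 GC box, on the opposite strand, starting 140 bases before the start. The Pbrm1 window was 67.2% G and C and held none of the 5 motifs. Phf10 had the most GC-rich window of the 8 (88.4%), with 5 GC boxes between 67 and 32 bases before the start, 3 of them overlapping one another, and 1 YY1 core at 120 bases. The last 13 bases of the Phf10 window lie in the first exon of the longer gene model of GENCODE M21. The GC box, spelled GGGCGG, was found in 6 of the 8 members and in 32.7% of the 32851 mouse promoters searched. The CCAAT box occurred in Dpf2 alone of the members and in 33.8% of all promoters. The ETS core, spelled CCGGAAG, occurred in Smarca2 and in 6.91% of all promoters, and the YY1 core, spelled ATGGCGG, occurred in Phf10 and in 2.21%. The NRF1 core, spelled GCATGCGC, was in none of the 8 members and in 2.26% of all promoters. No matches to different motifs overlapped. The GENCODE M21 gene start lay further upstream than the RefSeq start by 742 bases in Arid1b, 139 in Dpf2 and 110 in Smarca2. The whole Arid1b window, with its GC box, therefore lies within the annotated gene. So do the CCAAT box of Dpf2 (101 bases before the RefSeq start) and, in Smarca2, the ETS core (106) and the GC box at 69 bases.

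Under the pIpC label, 2 members rose and 1 fell: Arid1b and Phf10 were higher and Arid2 was lower, and the other 7 did not pass a Benjamini-Hochberg adjusted p of 0.1 from limma over all genes tested. With that rule 45.3% of all 15020 genes were called, 25% higher and 20.4% lower, so 3 of 10 members lay below the background of the whole table. The median log2 fold change of the 10 members was 0.15, against 0.02 for all genes tested. Groups did not overlap for 6 members, 4 higher (Arid1b, Dpf2, Pbrm1 and Phf10) and 2 lower (Arid2 and Smarcb1), while this was so for 56.8% of all genes (30.5% higher and 26.3% lower).

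**Figure D1:**
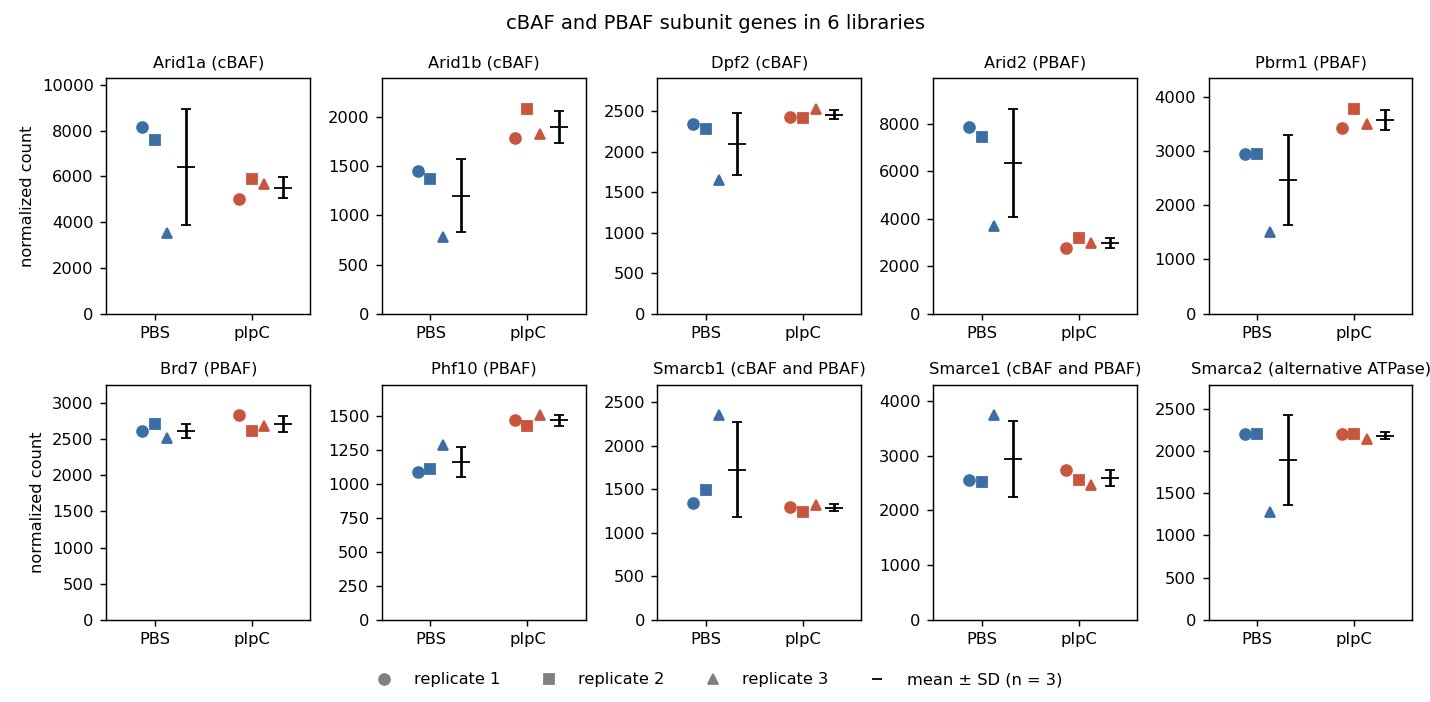
Normalized count of each of the 10 subunit genes (y axis, linear from 0) in the 3 PBS libraries (blue) and the 3 libraries labelled pIpC (red), with circle, square and triangle for replicates 1, 2 and 3 and black bars for mean ± SD (n = 3). PBS replicate 3 lies far from the other PBS libraries in most panels, for example at 3518.3 for Arid1a against 8145.1 and 7588.4, whereas the libraries labelled pIpC lie close together.

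PBS replicate 3 set most of the spread among the members. PBS replicates 1 and 2 differed by at most 0.15 on the log2 scale in any member, and the range over the 3 libraries labelled pIpC was at most 0.23, but over the 3 PBS libraries it reached 1.21. Relative to the other PBS libraries, replicate 3 was lower in the 5 longest members, by log2 values from -1.16 (Arid1a) to -0.78 (Smarca2), and higher in the short members Smarcb1 (0.73) and Phf10 (0.23) and in Smarce1 (0.56). Over the 10 members this log2 difference had a Pearson correlation of -0.90 with log2 transcript length (Spearman rho -0.89), given as a description since the genes share one library. It was not particular to the members: over 14977 genes the values were -0.33 and -0.51, and of 10 equal bins by length the median was 0.86 in the shortest (median 502 bases) and -0.88 in the longest (7776 bases). Each member is therefore also given without PBS replicate 3, a fit in which 65.1% of all genes were called (34.5% higher, 30.6% lower), and with each library's trend over transcript length removed, in which 53.5% were called (29% higher, 24.4% lower). Both of these called 5 members: Arid1b, Pbrm1 and Phf10 as higher, and Arid1a and Arid2 as lower.

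**Figure D2:**
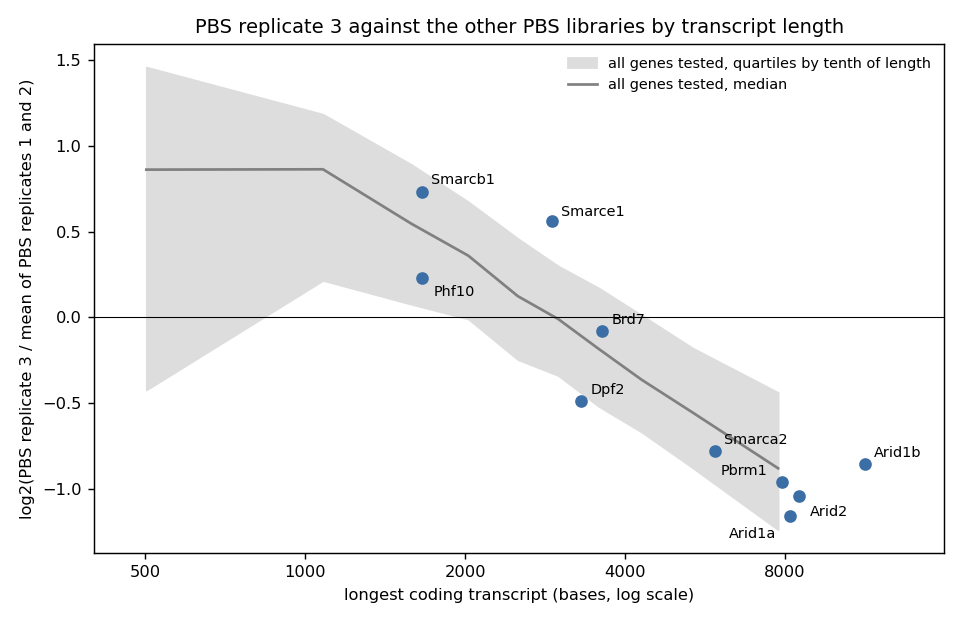
Log2 ratio of PBS replicate 3 to the mean of PBS replicates 1 and 2 (y axis) against the length of the longest coding transcript in bases (x axis, log scale) for the 10 members (blue points), with the median and quartiles of all genes tested in 10 bins of length (grey). The members follow the downward trend of all genes, from 0.73 for Smarcb1 to -1.16 for Arid1a.

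Of the cBAF subunits, Arid1b rose, and Arid1a passed as lower only without PBS replicate 3 or with the length trend removed. Arid1a (ENSMUSG00000007880; GRCm38 chromosome 4, 133679008 to 133756769, minus strand; 20 exons, 8187 bases in its longest coding transcript) encodes an ARID subunit of cBAF, a DNA-binding protein often mutated in human cancer. It was counted at 8145.1, 7588.4 and 3518.3 in the PBS libraries and at 5014.3, 5875.7 and 5648.2 in the libraries labelled pIpC. All libraries labelled pIpC lay below PBS replicates 1 and 2 and above PBS replicate 3, so the groups overlapped. With all libraries (6417 ± 2526 against 5513 ± 446, SD, n = 3 each) the log2 fold change was -0.13 (standard error 0.32, limma adjusted p = 0.776). Without PBS replicate 3 it was -0.52 (standard error 0.08, limma adjusted p = 0.000606), and with the length trend removed it was -0.53 (limma adjusted p = 0.00537). The sign turned when PBS replicate 1 or 2 was left out instead (0.09 and 0.04, limma adjusted p = 0.844 and 0.939).

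Arid1b (ENSMUSG00000069729; chromosome 17, 4994332 to 5347656, plus strand; 20 exons, 11325 bases) encodes the paralog that can take the place of ARID1A in cBAF. It was counted at 1456.2, 1368.5 and 779.7 in the PBS libraries and at 1783.5, 2082.2 and 1830.5 in the libraries labelled pIpC. Every library labelled pIpC was above every PBS library. The mean went from 1201 ± 368 to 1899 ± 161 (SD, n = 3 each), a 1.63-fold rise (log2 fold change 0.71, standard error 0.25, limma adjusted p = 0.065). Without PBS replicate 3 the rise was smaller and its error lower (log2 fold change 0.42, standard error 0.08, limma adjusted p = 0.0023), and with the length trend removed it was 0.24 (limma adjusted p = 0.0868). The call was lost when pIpC replicate 1, 2 or 3 was left out (limma adjusted p = 0.139, 0.194 and 0.152) and under quantile normalization (0.119).

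Dpf2 (ENSMUSG00000024826; chromosome 19, 5896516 to 5913010, minus strand; 11 exons, 3314 bases) encodes the PHD-finger subunit of cBAF that reads modified histone H3. Its values were 2336.9, 2279.5 and 1647.7 in the PBS libraries and 2427.3, 2420.4 and 2523.9 in the libraries labelled pIpC. The groups did not overlap, although PBS replicates 1 and 2 came close to the libraries labelled pIpC. The log2 fold change was 0.25 (2088 ± 382 against 2457 ± 57.9, SD, n = 3 each; standard error 0.16, limma adjusted p = 0.263) and was 0.09 without PBS replicate 3 (limma adjusted p = 0.239). An antisense gene, Gm42067, shares 79 exonic bases with Dpf2, and its mean count was 14.4.

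Of the PBAF subunits, Arid2 fell and Phf10 rose. Pbrm1 was higher in all 3 fits, but with all libraries and no length trend removed it did not pass. Brd7 passed in none of the 3 fits. Arid2 (ENSMUSG00000033237; chromosome 15, 96287518 to 96404992, plus strand; 21 exons, 8507 bases) encodes the ARID subunit that defines PBAF. It was counted at 7862.2, 7433.5 and 3714.1 in the PBS libraries and at 2782.6, 3189.7 and 2989 in the libraries labelled pIpC. Every library labelled pIpC was below every PBS library, and PBS replicate 3 lay nearer to them than to the other PBS libraries. The mean was 6337 ± 2281 against 2987 ± 204 (SD, n = 3 each), a 2.01-fold fall (log2 fold change -1.01, standard error 0.29, limma adjusted p = 0.034). Without PBS replicate 3 the log2 fold change was -1.36 (standard error 0.07, limma adjusted p = 1e-06), and with the length trend removed it was -1.42 (limma adjusted p = 1.8e-05). The call was lost without pIpC replicate 1 (limma adjusted p = 0.114) and without pIpC replicate 3 (0.104), where the log2 fold change was -0.96 and -1.01.

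Pbrm1 (ENSMUSG00000042323; chromosome 14, 31019138 to 31121592, plus strand; 31 exons, 7907 bases) encodes the PBAF subunit with a row of bromodomains that bind acetylated histones, and its upstream sequence is printed above. Its counts were 2935.7, 2949.5 and 1511.9 in the PBS libraries and 3426.3, 3771 and 3491.8 in the libraries labelled pIpC. The groups did not overlap. The log2 fold change was 0.59 with all libraries (2466 ± 826 against 3563 ± 183, SD, n = 3 each; standard error 0.27, limma adjusted p = 0.129), which did not pass. It was 0.27 without PBS replicate 3 (standard error 0.07, limma adjusted p = 0.00654), 0.75 without PBS replicate 1 (limma adjusted p = 0.0944) and 0.20 with the length trend removed (limma adjusted p = 0.0584), all past the threshold. Pbrm1 shares 15 exonic bases (0.17%) with Gnl3 on the opposite strand, whose mean count was 2159. Gnl3 was lower under the pIpC label (log2 fold change -0.57, limma adjusted p = 0.0161). How far Gnl3 reaches into the printed Pbrm1 window was not examined.

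Phf10 (ENSMUSG00000023883; chromosome 17, 14945009 to 14961273, minus strand; 12 exons, 1663 bases) encodes the PHD-finger subunit of PBAF, also known as BAF45A, which marks proliferating progenitors in neural tissue. It was counted at 1089.3, 1112.4 and 1291.2 in the PBS libraries and at 1476.1, 1427.3 and 1508.5 in the libraries labelled pIpC. All libraries labelled pIpC were above all PBS libraries, and here PBS replicate 3 was the highest of its group. The rise was 1.27-fold (1164 ± 111 against 1471 ± 40.9, SD, n = 3 each; log2 fold change 0.34, standard error 0.12, limma adjusted p = 0.0668). Without PBS replicate 3 the log2 fold change was 0.42 (standard error 0.07, limma adjusted p = 0.000737), and with the length trend removed it was 0.55 (limma adjusted p = 0.00308). With any other single library left out Phf10 did not pass (limma adjusted p = 0.162 and 0.168 without PBS replicate 1 or 2, and 0.168, 0.165 and 0.205 without pIpC replicate 1, 2 or 3), nor with a block for replicate number (0.16), without the filter on low values (0.122), without the intensity trend (0.113) or under quantile normalization (0.212). Phf10 shares 470 exonic bases, 9.56% of its exonic length, with 1600012H06Rik on the opposite strand. That gene also rose, from 477.6, 408.9 and 559 in the PBS libraries to 674.7, 743.8 and 717.5 under the pIpC label (log2 fold change 0.57, limma adjusted p = 0.0277). In the unstranded libraries that the labels describe reads from the shared bases cannot be told apart.

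Brd7 (ENSMUSG00000031660; chromosome 8, 88331039 to 88362194, minus strand; 17 exons, 3625 bases) encodes the bromodomain subunit of PBAF and is the closest paralog of Brd9. Its counts were 2612.1, 2707.6 and 2513.4 in the PBS libraries and 2830.5, 2614.5 and 2681.5 in the libraries labelled pIpC. The groups overlapped, and Brd7 had the smallest range over the PBS libraries of any member, 0.11 on the log2 scale. The log2 fold change was 0.05 (2611 ± 97.1 against 2709 ± 111, SD, n = 3 each; standard error 0.11, limma adjusted p = 0.723), and its sign turned under quantile normalization (-0.08) and with the length trend removed (-0.03).

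The subunits common to cBAF and PBAF did not pass in any of the 3 fits. Smarcb1 (ENSMUSG00000000902; chromosome 10, 75896769 to 75921617, minus strand; 9 exons, 1660 bases) encodes the core subunit SNF5, whose loss drives rhabdoid tumours. It was counted at 1337.6, 1486.9 and 2349.3 in the PBS libraries and at 1296.5, 1241.3 and 1319 in the libraries labelled pIpC. The groups did not overlap, but PBS replicate 1 lay just above the highest library labelled pIpC and PBS replicate 3 far above. The log2 fold change was -0.38 (1725 ± 546 against 1286 ± 39.9, SD, n = 3 each; standard error 0.22, limma adjusted p = 0.217) and was -0.13 without PBS replicate 3 (limma adjusted p = 0.161).

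Smarce1 (ENSMUSG00000037935; chromosome 11, 99209047 to 99231017, minus strand; 11 exons, 2919 bases) encodes BAF57, an HMG-box DNA-binding subunit. Its values were 2546.3, 2521.4 and 3736.8 in the PBS libraries and 2744.7, 2556.3 and 2465.8 in the libraries labelled pIpC. The groups overlapped and only PBS replicate 3 stood apart. The log2 fold change of -0.16 (2935 ± 695 against 2589 ± 142, SD, n = 3 each; standard error 0.18, limma adjusted p = 0.522) became 0.03 without that library. The processed pseudogene Smarce1-ps1 had a mean count of 13, so few reads were assigned to it.

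Smarca2 (ENSMUSG00000024921; chromosome 19, 26605050 to 26778322, plus strand; 33 exons, 5921 bases) encodes BRM, the ATPase that alternates with BRG1. It was counted at 2200.2, 2195.4 and 1277.7 in the PBS libraries and at 2199.7, 2204.8 and 2136.1 in the libraries labelled pIpC. Apart from PBS replicate 3 the libraries lay close together, and the groups overlapped. The log2 fold change was 0.25 with all libraries (1891 ± 531 against 2180 ± 38.3, SD, n = 3 each; standard error 0.22, limma adjusted p = 0.419) and -0.01 without PBS replicate 3 (standard error 0.06, limma adjusted p = 0.883).

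**Figure D3:**
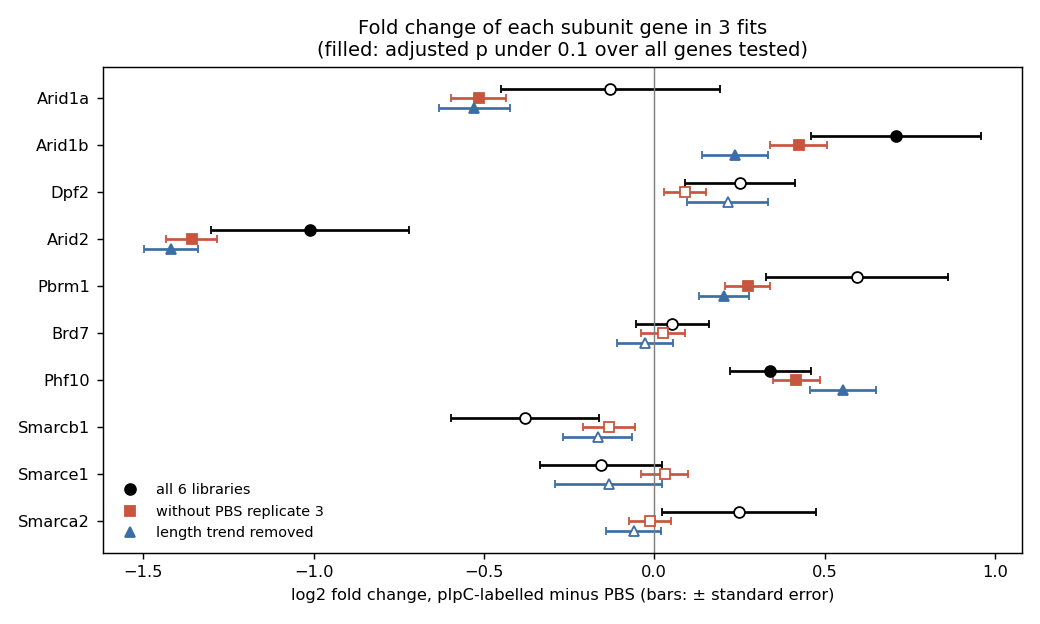
Log2 fold change of each member, libraries labelled pIpC minus PBS (x axis; bars are ± 1 standard error from limma), with all 6 libraries (circles), without PBS replicate 3 (squares) and with the transcript length trend removed (triangles); filled symbols passed an adjusted p of 0.1 over all genes tested. Arid2 stands at -1.01, -1.36 and -1.42 in the 3 fits, Arid1a moves from -0.13 to -0.52 and -0.53, and Arid1b moves from 0.71 to 0.42 and 0.24.

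Ratios between members were taken within each library, where a factor common to both genes cancels. For 3 of 7 ratios the groups did not overlap, and these 3 all involve the ARID subunits. They share genes (Arid2, Arid1a and Arid1b), so they are not separate results. Groups did not overlap for 56.8% of single genes, and the share among ratios of other genes was not computed. Pbrm1 was counted at 0.373, 0.397 and 0.407 times the level of Arid2 in the PBS libraries and at 1.23, 1.18 and 1.17 times in the libraries labelled pIpC. The mean log2 ratio thus went from -1.35 ± 0.06 to 0.255 ± 0.04 (SD, n = 3 each), a 3.04-fold shift within the PBAF-specific pair, and PBS replicate 3 lay beside the other PBS libraries. The exact permutation test gave a 2-sided p of 0.1, the lowest that 3 against 3 can give, and 0.233 after adjustment over the 7 ratios, so no ratio could pass a threshold of 0.05 here.

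Arid2 relative to the sum of Arid1a and Arid1b was 0.819, 0.83 and 0.864 in the PBS libraries and 0.409, 0.401 and 0.4 in the libraries labelled pIpC. This ratio of the PBAF to the cBAF ARID genes was thus 2.08-fold lower under the pIpC label (log2 difference -1.05; -1.03 without PBS replicate 3; exact permutation p = 0.1, adjusted 0.233). Arid1b relative to Arid1a was 0.179, 0.18 and 0.222 in the PBS libraries and 0.356, 0.354 and 0.324 in the libraries labelled pIpC. This RNA ratio of the 2 cBAF ARID genes was 1.79-fold higher in the latter (log2 difference 0.84; 0.94 without PBS replicate 3; exact permutation p = 0.1, adjusted 0.233). The make-up of the complex was not measured.

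The other 4 ratios overlapped between groups. Smarca2 to Smarca4, the alternative ATPases, was 0.595, 0.548 and 0.458 in PBS and 0.543, 0.535 and 0.523 under the pIpC label, a log2 difference of 0.01 (exact permutation p = 1). Phf10 to Dpf2, the PHD-finger subunits of PBAF and cBAF, was 0.466, 0.488 and 0.784 in PBS and 0.608, 0.59 and 0.598 under the pIpC label. Its log2 difference was 0.09 (exact permutation p = 1), 0.33 without PBS replicate 3, which alone lay above the libraries labelled pIpC, 0.34 with the length trend removed, and -0.05 and -0.01 without PBS replicate 1 or 2. Brd7 to Brd9, the paralogs of PBAF and ncBAF, was 1.36, 1.39 and 1.54 in PBS and 1.39, 1.16 and 1.33 under the pIpC label (log2 difference -0.15, exact permutation p = 0.2, adjusted 0.28). Smarcb1 to Smarce1 was 0.526, 0.59 and 0.629 in PBS and 0.473, 0.486 and 0.535 under the pIpC label (log2 difference -0.22, exact permutation p = 0.2, adjusted 0.28).

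**Figure D4:**
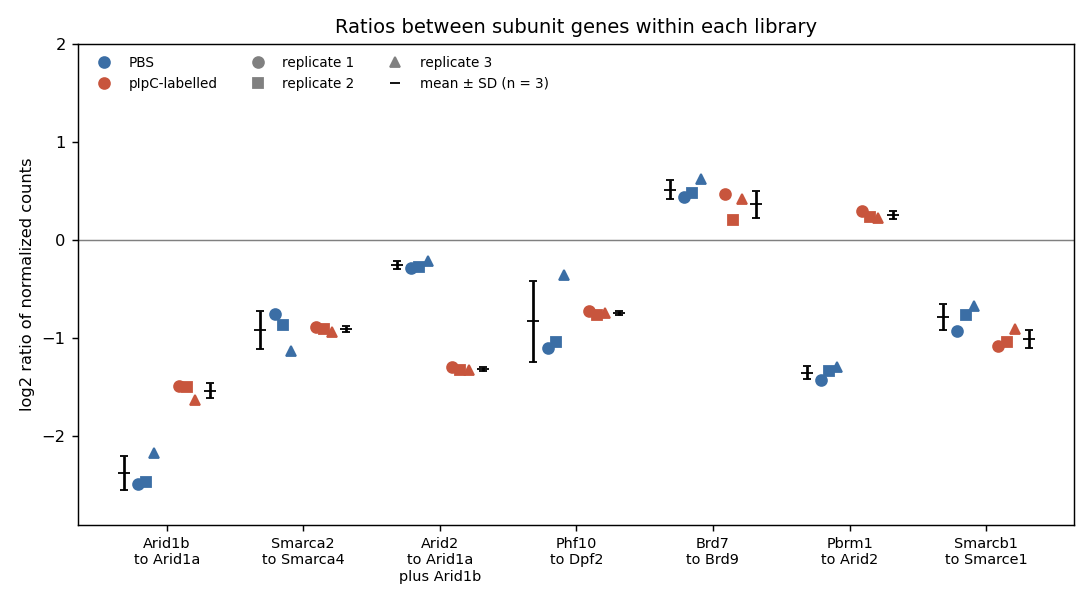
Log2 ratio of normalized counts (y axis) for the 7 subunit pairs (x axis) in each PBS library (blue) and each library labelled pIpC (red), with symbols by replicate and black bars for mean ± SD (n = 3). The groups separate for Arid1b to Arid1a, for Arid2 to Arid1a plus Arid1b and for Pbrm1 to Arid2, the last from a mean of -1.35 to 0.255.

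Levels were compared between genes as normalized counts per kilobase of the longest coding transcript. Exons outside that transcript are left out of this length. In Phf10, 470 bases are 9.56% of the exonic length, while the longest coding transcript has 1663 bases. The order, ranks and percentiles between genes therefore depend on the length chosen, and no other length was tried. With all 3 PBS libraries Smarcb1 (1039 ± 329) and Smarce1 (1005 ± 238) were highest, followed by Arid1a (784 ± 309), Arid2 (745 ± 268), Brd7 (720 ± 26.8), Phf10 (700 ± 66.5) and Dpf2 (630 ± 115), and these 7 ranges each overlapped that of the next. Smarca2 (319 ± 89.7) and Pbrm1 (312 ± 104) lay below them and Arid1b (106 ± 32.5) was lowest (mean ± SD, n = 3). This order rested on PBS replicate 3: over PBS replicates 1 and 2 alone Arid1a (961) and Arid2 (899) were highest, followed by Smarce1 (868), Smarcb1 (851), Brd7 (734), Dpf2 (696), Phf10 (662), Pbrm1 (372), Smarca2 (371) and Arid1b (125). In the libraries labelled pIpC the order was Smarce1 (887 ± 48.7), Phf10 (884 ± 24.6), Smarcb1 (774 ± 24.1), Brd7 (747 ± 30.5), Dpf2 (741 ± 17.5), Arid1a (673 ± 54.5), Pbrm1 (451 ± 23.2), Smarca2 (368 ± 6.47), Arid2 (351 ± 23.9) and Arid1b (168 ± 14.2). Neighbours in this order overlapped only for Smarce1 with Phf10, Smarcb1 with Brd7, Brd7 with Dpf2, and Smarca2 with Arid2. Arid2, at rank 4 in PBS (rank 2 without replicate 3), was at rank 9 under the pIpC label, and Phf10, at rank 6 (rank 7 without replicate 3), was at rank 2. Among all genes tested Arid2 was at percentile 85 per kilobase in PBS (89.4 without replicate 3) and at 70.5 under the pIpC label, whereas Arid1b was near the middle, at 43.7 (47.3) and 52.7.

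Within the 3 ARID genes, Arid2 made up 45.1%, 45.5% and 46.7% of the counts per kilobase in the PBS libraries and 29.8%, 29.4% and 29.2% in the libraries labelled pIpC. Arid1a took 47.6% ± 1.43 in PBS and 56.5% ± 0.79 in the libraries labelled pIpC, and Arid1b took 6.64% ± 0.62 and 14.1% ± 0.54 (SD, n = 3 each). The groups did not overlap for any of the 3 shares, in which PBS replicate 3 lay close to its group. These shares restate the counts behind the ratios above and are not a separate result. Of the ATPase pair, Smarca2 took 36.4% ± 3.08 in PBS and 36.5% ± 0.44 under the pIpC label, the rest being Smarca4. The size of every share, of ARID genes and ATPases alike, depends on the transcript lengths chosen, which are the same for all libraries.

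**Figure D5:**
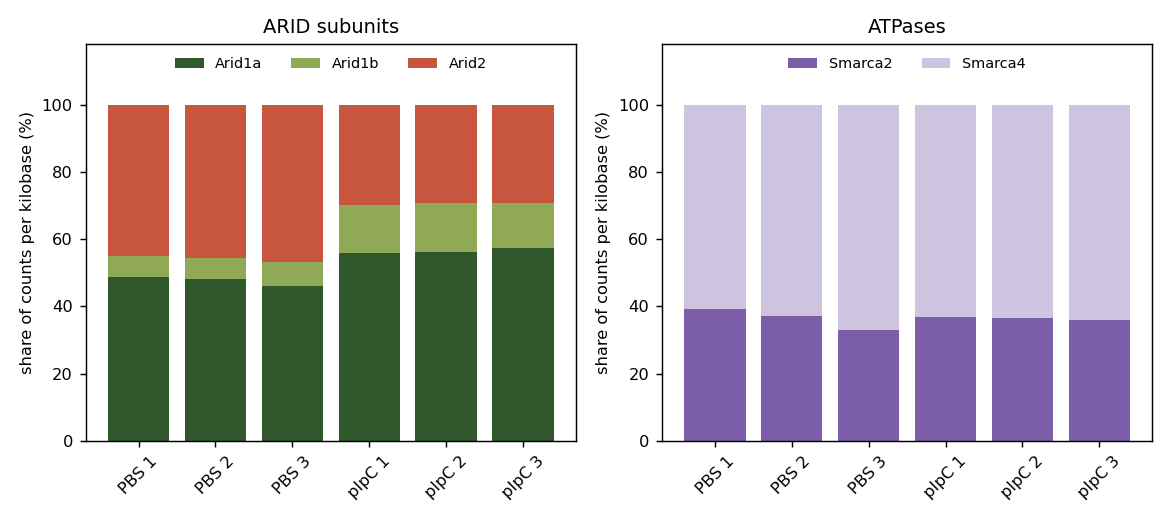
Share of counts per kilobase (y axis, %) of Arid1a, Arid1b and Arid2 (left) and of Smarca2 and Smarca4 (right) in each of the 6 libraries (x axis). The Arid2 share is 45.1% to 46.7% in PBS and 29.2% to 29.8% in the libraries labelled pIpC, while the Smarca2 share stays between 33% and 39.1%.

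Among the other SWI/SNF genes, 19 of 21 listed genes could be tested, and 4 were higher, 2 lower and 13 not called, with a median log2 fold change of 0.24. The 6 of 19 lay below the 45.3% called over all genes (25% higher, 20.4% lower). Actl6a, the actin-like subunit BAF53A of progenitor complexes, rose from 574 ± 56 to 1220 ± 62.1 (log2 fold change 1.09, limma adjusted p = 0.000836), and Bcl7a rose from 540 ± 114 to 791 ± 65.6 (0.57, adjusted p = 0.056). Ss18, which anchors cBAF and ncBAF and is the synovial sarcoma fusion partner, fell from 2814 ± 152 to 1840 ± 126 (-0.61, adjusted p = 0.00629). The ncBAF genes Brd9, Bicra (0.12, adjusted p = 0.693) and Bicral (0.32, adjusted p = 0.535) did not pass limma, and at an unadjusted p under 0.05 the count of these genes was also 0.

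The remaining called genes were lineage-restricted partners. Bcl11a, a zinc finger factor of B cell and erythroid development, was at 3.21 ± 1.04 in PBS and 890 ± 32.1 under the pIpC label (adjusted p = 1.7e-05), and Bcl11b, its T cell paralog, was at 514 ± 75.2 and 3.02 ± 1.77 (adjusted p = 5.3e-05; SD, n = 3 each, limma). Dpf3, the paralog of Dpf2 known from heart and muscle, was at 3.35 ± 0.73 and 17.8 ± 8.66 (adjusted p = 0.0201). In these libraries 8 of 8 B cell markers and 5 of 5 tested T and NK cell markers were higher under the pIpC label. So were all 10 neutrophil markers, all 9 erythroid markers found and 6 of 8 macrophage markers, while 2 macrophage and 4 of 6 leukemia markers were lower. Bcl11a and Dpf3 thus moved in the direction of most marker lists, not of the lymphoid ones alone, and Bcl11b in the opposite direction. The part of any of these cell types was not tested. Without PBS replicate 3, 8 of the other SWI/SNF genes were higher and 3 lower, with a median of 0.12, in a fit that called 65.1% of all genes (34.5% higher, 30.6% lower).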

How the data were processed

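Poly(A) RNA of 6 libraries was sequenced by the authors. The submitters' processing notes name HISAT2 (2.2.1), SAMtools, featureCounts of Subread, edgeR and GRCm38, whereas the study's methods name nf-core/rnaseq with STAR and RSEM on mm10 (the same assembly) and DESeq2, so it is not settled which made the table. The deposited values are gene counts scaled by one factor per library and were treated as a signal, not as raw counts. All of them (100%, tolerance 0.01) were whole multiples of the library's smallest value.

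Groups came from the sample titles. Genes averaging at least 10 were tested with limma (3.58.1, in R 4.3.3) on log2(normalized count + 1), which understates changes of low genes, with an intensity trend and no replicate block. Calls had a Benjamini-Hochberg adjusted p under 0.1 over 15020 genes. Ratios and Brd9 had exact 2-sided permutation tests. Positions, overlaps and lengths (14977 tested genes) came from GENCODE M21. Scripts were tested on simulated data. Members, gene lists and tests were chosen with earlier results of these data known.

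Named genes were the 10 members, Brd9, Smarca4, every other SWI/SNF gene called, and the genes with the highest and lowest fold change in each of 3 other remodeller families; Xist, Bicra, Bicral and the marker genes were named after their values were seen. The fit was repeated with each library left out, with a replicate block, without the intensity trend, with pseudocounts of 0.1 and 10, without the filter and with a mean of 50 required, after quantile normalization or median centring, at an adjusted p under 0.05, and after subtracting trends over transcript length or GC content per library. Deviations from the group mean correlated at -0.117, 0.143 and 0.041 between libraries numbered 1, 2 and 3, so the numbers were not taken to pair the libraries. Values per exon and protein sequences were not analysed here.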

Additional observations from a re-analysis of the deposited data

How the results depend on the processing

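Of 180 comparisons of a member's log2 fold change with an alternative, 147 kept direction and call, 17 lost the call, 7 gained it and 9 turned direction; none of the members that turned was called in either fit, and the cause was not tested. Turned values were -0.077 (quantile normalization) and -0.027 (length trend removed) for Brd7, 0.09 and 0.039 without PBS replicate 1 or 2 for Arid1a (-0.515 to 0.09 with 1 library left out), 0.03 without PBS replicate 3 for Smarce1 (-0.254 to 0.03), and -0.012 without that library (-0.012 to 0.38) and -0.061 with the length trend removed for Smarca2. The count of members called (3) was 1 under quantile normalization or an adjusted p under 0.05, and 5 with the length trend removed. Of all 15020 genes 6808 were called in the main fit, and 7322, 5367 and 8033 in these 3 fits, in that order. The count of members was 2 without the filter on low values, where 7910 genes were called. It was also 2 without the intensity trend, where 6446 genes were called. Leaving out 1 library gave 0 to 5: 0 without pIpC replicate 1 or 3 (1 at an unadjusted limma p under 0.05, Arid2), 1 without pIpC replicate 2, 2 without PBS replicate 2 and 5 without PBS replicate 3. Over all genes the fits without pIpC replicate 1, 2 or 3 called 5060, 4650 and 4750. Those without PBS replicate 2 or 3 called 6076 and 9783. The members' median (0.151) was 0.011 under quantile normalization, which moved the median of all genes to -0.12, and -0.044 with the length trend removed; leaving out 1 library gave 0.028 to 0.195. The count of other SWI/SNF genes (6) was 10 with the length trend removed and 5 to 11 with 1 library left out, the highest without PBS replicate 3. The count of other remodellers (20) was 12 at an adjusted p under 0.05 and 11 to 31 with 1 library left out (11 without any one pIpC library, 31 without PBS replicate 3). With the length trend removed, the log2 ratio difference of Brd7 to Brd9 moved to -0.32 and that of Smarcb1 to Smarce1 to -0.031, and that of Phf10 to Dpf2 was 0.338 (-0.047 to 0.327 with 1 library left out). Removing the length trend with PBS replicate 3 left out was chosen after seeing the data. It called 5 members, 12 other SWI/SNF genes, 33 other remodellers and 9854 of all genes. It gave Brd9 a log2 fold change of 0.158 that passed (limma adjusted p = 0.0938) and Smarce1 and Smarca2 values of 0.053 and -0.096. With a replicate block 2 members, 14 other remodellers and 6095 genes were called, Phf10 losing its call (limma adjusted p = 0.16), and no other member's call changed. A count test by edgeR and DESeq2 on recovered reads was planned but not run. A check of units did not accept the smallest value of pIpC replicate 1 (0.998061) as 1 read, since it lay within the check's tolerance of 1. The standard errors of the longer members, and with them the size of change that could be called, were set largely by PBS replicate 3 (0.321 for Arid1a, 0.081 without it).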

Other observations

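Other ATP-dependent remodellers were called at a rate to be read against 45.3% of all genes (25% higher, 20.4% lower). Without PBS replicate 3 the share over all genes was 65.1% (34.5% higher, 30.6% lower). Of 48 genes tested from the ISWI, CHD and NuRD, and INO80, SRCAP and TIP60 families, 12 were higher and 8 lower under the pIpC label (median log2 fold change 0.15), and without PBS replicate 3 the counts were 19 and 12 with a median of 0.03. Of 8 ISWI genes tested 4 were higher and 1 lower. The largest rise was that of Cecr2, a bromodomain partner of ISWI ATPases, from 2.17 ± 1.89 to 99.5 ± 58.4 (limma adjusted p = 0.00215), and Baz2b fell from 13856 ± 5711 to 3659 ± 365 (log2 fold change -1.82, limma adjusted p = 0.00627). Of 19 CHD and NuRD genes 4 were higher and 2 lower. Chd3, an alternative ATPase of NuRD, rose from 132 ± 39.2 to 1030.0 ± 196 (log2 fold change 2.98, limma adjusted p = 0.00026), and Chd9 fell from 10939 ± 2793 to 1977 ± 172 (-2.44, limma adjusted p = 0.000231; SD, n = 3 each). Of 21 INO80, SRCAP and TIP60 genes 4 were higher and 5 lower, with a median of -0.12. The highest value, that of Ino80d (0.69, limma adjusted p = 0.237), did not pass, and Actr5, an actin-related subunit of INO80, fell from 907 ± 219 to 498 ± 47.7 (-0.84, limma adjusted p = 0.0147). Chd9 fell further than Arid2 in log2 fold change, but the difference between these genes was not tested.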
